A study of Mus musculus with 24 samples.

Results

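After sciatic nerve lesion, 22 array probes in L4 and L5 dorsal root ganglia (DRG) were higher at day 2 and back near the control level at day 5. DRG hold the cell bodies of the sensory neurons whose axons run in the nerve. The probes carry 22 gene or transcript names, out of 41174 probes with 27398 names on the array. They were chosen from the measured lesion response itself: on the log2 scale of the scanner's processed signals, each sample scaled to the same 75th percentile, a probe had to be at least 0.8 higher at day 2 than in the controls, at most 0.3 higher at day 5, and well above background in all 8 day 2 samples. WT and *Nfil3* KO mice were averaged in this choice. The differences over control given here are therefore descriptions of the choice, and no test is attached to them.

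There were 24 samples in 6 groups of 4, from adult male C57BL/6J mice: WT littermates and *Nfil3* KO mice, each as control, day 2 and day 5. The KO is a null allele, made by crossing floxed *Nfil3* mice to a line with Cre driven by a human CMV promoter, and is not limited to a cell type. By the study's methods all mice had the left nerve cut and resutured, and the controls were DRG of the uninjured side, so no sample came from an unoperated mouse. The sample titles label the controls as day 0. The day after surgery on which uninjured-side DRG were taken, and the time of day of dissection, are not given in the sources used here. Whether a control and a lesioned sample came from the same mouse is not given either, and the tests paired no samples. A daily opioid analgesic was given over the days that include day 2 but not day 5, so time after lesion and analgesic cannot be told apart.

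The most familiar members are parts of the circadian clock. In most cells BMAL1 (*Arntl*) and CLOCK switch on *Per*, *Cry* and the PAR bZIP factors, of which DBP is the best known, and PER and CRY proteins then shut BMAL1 and CLOCK off again. DBP activates genes through D-box sites, and NFIL3, the factor deleted here, binds the same sites as a repressor. Of 37 gene lists, 26 of pathways and 11 of cell type markers, the circadian clock and the red blood cell lists held 2 members each. They have 22 and 5 genes on the array, and the other 35 lists held no member. The lists were drawn up with earlier results of these data known, so these counts are descriptions. The other members have mixed roles, among them a Wnt ligand, a secreted nuclease and several transcription factors and enzymes, or carry names with no known function. In bulk tissue, fewer cells of a type and less RNA per cell cannot be told apart.

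A return to the control level by day 5 was rare. Of 23479 probes well above background in all day 2 samples, 942 were at least 0.8 higher at day 2, and 920 of these exceeded the day 5 limit. The median day 5 difference of the 942 raised probes was 1.30 on the same scale, and 529 of them were at least as high over control at day 5 as at day 2. The members sat at the low edge of the raised probes, and the *E030010A14Rik* probe, at 1.79 at day 2 and 0.24 at day 5, stood apart from the rest. The members just inside the day 2 limit were *Hbb-b1* (0.80), *1810011O10Rik* (0.81) and *Olfr920* (0.81). Probes for *Alas2*, *Sp110* and *1810011O10Rik* were just outside, each at 0.79. At the day 5 limit *Stfa3* (0.28), *Cux1* (0.27) and *Wnt2b* (0.26) were just inside and *Mapk13* (0.32), *Lox* (0.32) and *Mdfi* (0.33) just outside.

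**Figure D1:**
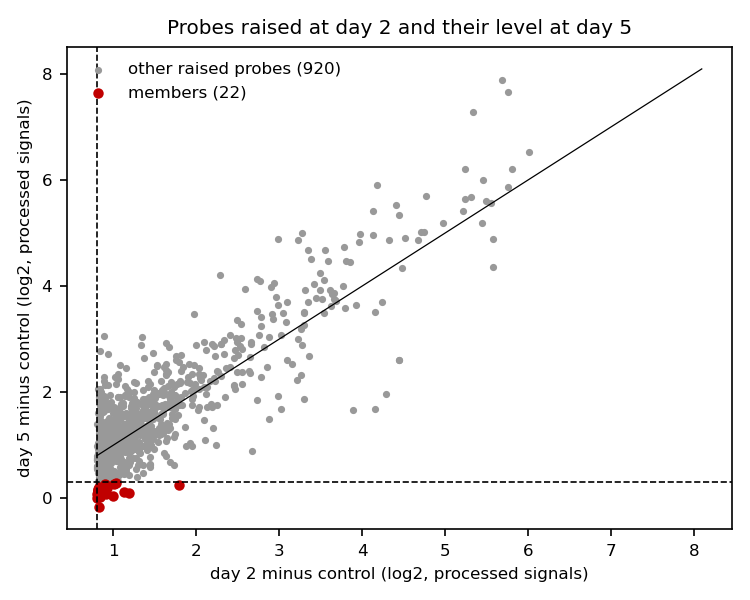
Difference from control at day 2 (x axis) and day 5 (y axis), log2 of scaled processed signals, mean of WT and KO, for the 942 probes raised at day 2. Dashed lines are the limits of 0.8 and 0.3, the solid line marks equal differences, and the 22 members (red) lie in the lower left corner below most of the 920 other raised probes (grey).

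All values from here on are log2 intensities after Edwards background correction and quantile normalization, as in the study's methods, unless the scale of the choice is named. On this scale the members were a median of 0.70 higher at day 2 (range 0.47 to 1.42) and 0.04 higher at day 5 (range -0.35 to 0.17). Over all probes the medians were -0.02 and -0.04. The rises were small beside the spread of samples: in 2 of 22 members did all 8 day 2 samples lie above all 8 controls, which was so for 3.42 percent of all probes without a missing value. In 1 member, *E030010A14Rik*, all 8 lay above the 16 control and day 5 samples together, against 0.112 percent of all probes. Most members were dim. Their median level of 5.50 lay below the 7.94 of probes well above background in all day 2 samples, and 10 of the 22 were well above background in all 24 samples.

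Between 54.5 and 72.3 percent of probes per sample were well above background, no member had a missing value, and each group held 2 samples of each dye. Slides were less even: the 3 slides held 1, 4 and 3 day 2 samples and 3, 2 and 3 controls. The *Nfil3* probe exceeded background clearly in each of the 12 WT samples (8.44 to 9.01 in controls, 10.34 to 11.09 after lesion) and in 5 of 12 KO samples, where its highest value was 7.59. For KO control replicate 4 a label field other than the title gives day 5. Without that sample the choice gave 23 probes, 21 of them members. Other samples weighed more: without WT control replicate 1 or KO control replicate 3 the choice gave 12 probes, 14 if WT day 2 replicate 3 was left out, and 34 if KO day 2 replicate 3 was. *Dbp* and *Dnase1l3* met it whichever of the 24 samples was left out.

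**Figure D2:**
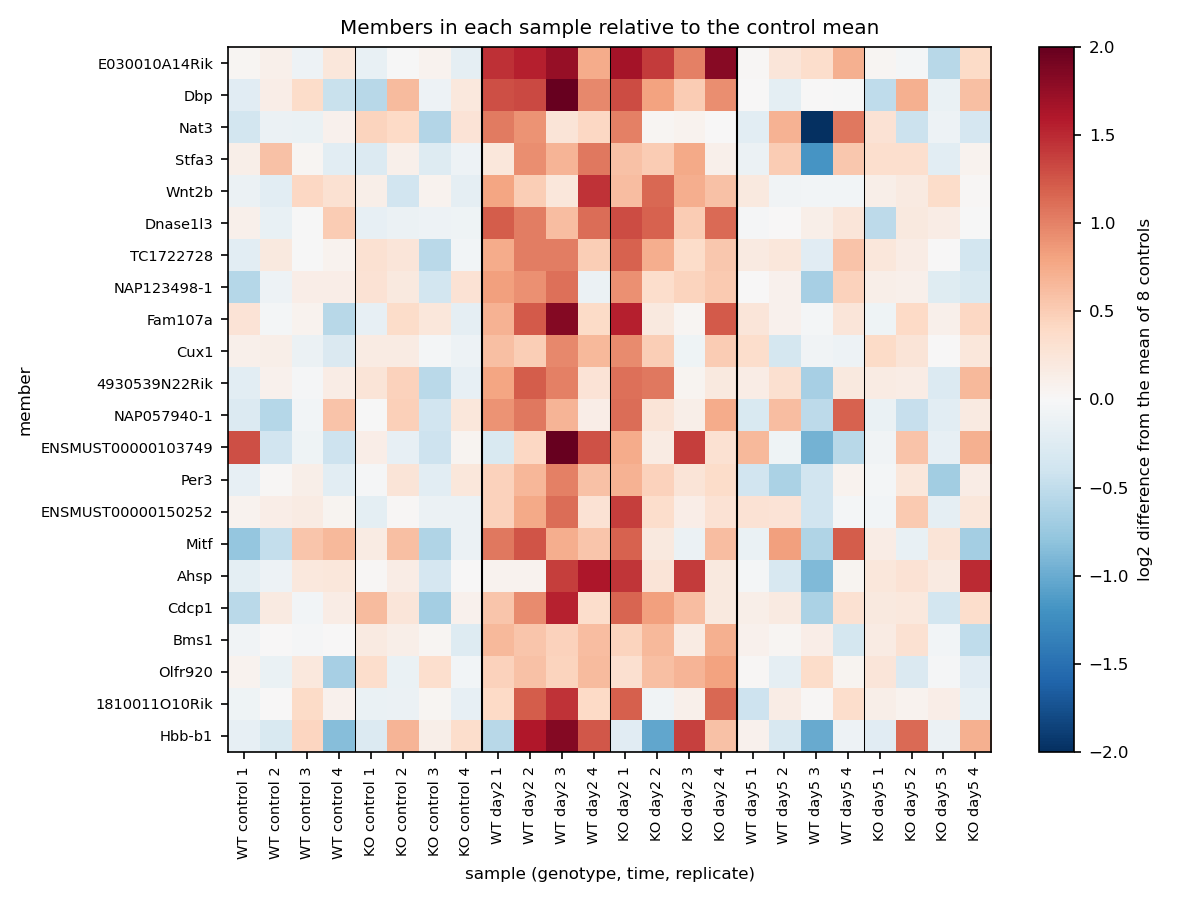
Log2 difference of each of the 22 members (rows, highest first on the scale of the choice) from the mean of the 8 controls, in the 24 samples (columns, by time, genotype and replicate); colours are limited to 2 in either direction, and the *Nat3* value of WT day 5 replicate 3 lies below this limit. The 8 day 2 columns are the reddest and the day 5 columns resemble the controls, but single day 2 samples differ widely within a row.

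*Dbp*, which encodes the D-box activator DBP, was the brightest clock member (probe at chr7:52965265-52965324, mm9). It read 10.60, 10.95, 11.19 and 10.39 in the WT controls and 10.27, 11.46, 10.72 and 11.03 in the KO controls. At day 2 it read 12.12, 12.15, 12.87 and 11.79 in WT and 12.12, 11.63, 11.33 and 11.75 in KO. At day 5 it read 10.84, 10.63, 10.84 and 10.82 in WT and 10.32, 11.54, 10.69 and 11.42 in KO. Of the 8 day 2 samples, 7 were above every control and every day 5 sample, and KO replicate 3 was not. The mean of the genotypes was 1.14 higher at day 2, 2.21-fold, and 0.06 higher at day 5.

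*Per3*, a period gene whose protein takes part in the repressing arm of the clock, moved less but as evenly (probe at chr4:150379256-150379315, mm9). Its controls read 5.41, 5.60, 5.69 and 5.36 in WT and 5.55, 5.83, 5.36 and 5.80 in KO. At day 2 the values were 6.03, 6.24, 6.58 and 6.17 in WT and 6.27, 6.03, 5.83 and 5.95 in KO. At day 5 they were 5.20, 4.94, 5.20 and 5.64 in WT and 5.53, 5.80, 4.88 and 5.73 in KO. Here too all day 2 samples but KO replicate 3 exceeded every other sample. The mean was 0.56 higher at day 2 and 0.21 lower at day 5, the lowest day 5 value among members on the scale of the choice (-0.17).

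The *Per3* promoter is shown because it holds the site that DBP and NFIL3 share. It is the RefSeq sequence of GRCm38.p6 from 250 bases before to 50 after the start, on the minus strand of chr4:151044616-151044915, with the D-box TTATGTAA in capitals.
Per3: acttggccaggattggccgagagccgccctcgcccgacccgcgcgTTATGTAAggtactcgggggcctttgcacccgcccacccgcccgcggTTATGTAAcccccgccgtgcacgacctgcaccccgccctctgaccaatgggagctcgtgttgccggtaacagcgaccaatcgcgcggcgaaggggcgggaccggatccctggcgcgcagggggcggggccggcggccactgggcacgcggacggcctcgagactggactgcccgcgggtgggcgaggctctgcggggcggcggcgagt
Its pair of copies begins 205 and 158 bases before the start. TTATGTAA, searched on both strands, was in 308 of 32851 RefSeq promoters of this length (0.938 percent). Promoters were matched for 11 member genes (15 promoters), and *Per3* alone of these held it. None of the 11 genes, *Dbp* included, held the E-box CACGTG (7.15 percent of all promoters) or the D-box TTACGTAA (0.119 percent). The motif TGACGTCA was in a *Mitf* promoter (1.79 percent of all) and AGATAAG in that of *Stfa3* (3.04 percent of all).

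Of the other 20 genes on a list of circadian clock genes, 4 were higher and 1 lower at day 2 (limma, adjusted p under 0.05), where 9.33 percent of all probes were called higher and 11.8 percent lower. The lower one was *Arntl*, the partner of CLOCK, which fell by 0.96 (adjusted p = 6.21e-06). Its 8 day 2 samples read 5.30 to 6.14, below all controls (6.42 to 7.18) and all day 5 samples (6.82 to 7.39). The 4 higher genes were *Per1* (0.96), *Bhlhe41* (1.09), *Csnk1e* (0.45) and *Gm129* (1.03). *Gm129*, a repressor of CLOCK and BMAL1 also named *Ciart*, was well above background in 12 of 24 samples.

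At day 5, where 9.6 percent of all probes were called higher and 12.6 percent lower, *Per1*, *Bhlhe41* and *Csnk1e* were still higher, at 0.66, 0.77 and 0.59, while *Gm129* was not (-0.24, adjusted p = 0.641). *Arntl* was 1.29 above its day 2 level at day 5 and *Gm129* 1.27 below it, and both differences passed the test. Of the 20 genes, 1 passed upward and 3 downward, *Gm129* among the latter. Of all probes, 1.99 percent passed upward and 1.09 percent downward. Among the clock genes that were not members, *Gm129* was thus high and *Arntl* low at day 2 alone. *Per1* and *Bhlhe41* were high at day 2 and also at day 5. For *Dbp* and *Per3* a rise at day 2 alone was required by the choice. At day 5 *Rora* was also higher (0.42), and *Clock*, *Nr1d2* and *Tef* were lower (-0.24, -0.51 and -0.35). *Nr1d1*, a repressor of *Arntl*, differed by 0.34 at day 2 in the mean of the genotypes (adjusted p = 0.327), and *Clock* by -0.05 (adjusted p = 0.729). That of *Nr1d1* was 0.67 in WT and 0.01 in KO, and its probe met the rule in WT samples alone. So did a *Per2* probe, which differed by 0.41 in WT and 0.21 in KO, while the brighter *Per2* probe differed by 0.12 in the mean (adjusted p = 0.679). Because the hour of dissection is not known for any group, time after lesion and hour of the day cannot be told apart for these genes.

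*E030010A14Rik*, named *Tmem252* in RefSeq and predicted to encode a membrane protein, had the largest rise of the members (probe at chr19:24752451-24752510, mm9). Its controls read 4.90, 4.96, 4.76 and 5.09 in WT and 4.72, 4.85, 4.93 and 4.68 in KO. At day 2 it read 6.32, 6.42, 6.60 and 5.61 in WT and 6.53, 6.25, 5.87 and 6.68 in KO. At day 5 it read 4.88, 5.10, 5.22 and 5.57 in WT and 4.89, 4.82, 4.30 and 5.25 in KO. No day 2 sample overlapped any other sample, and the mean was 1.42 higher at day 2, 2.68-fold, and 0.14 higher at day 5.

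*Dnase1l3*, which encodes a secreted nuclease made by macrophages and dendritic cells, was the other bright member with an even rise (probe at chr14:8799409-8799468, mm9). The 4 WT controls read 8.44, 8.19, 8.32 and 8.85 and the KO controls 8.17, 8.22, 8.24 and 8.26. At day 2 WT read 9.55, 9.37, 8.96 and 9.45 and KO 9.64, 9.52, 8.84 and 9.47. At day 5 WT read 8.32, 8.35, 8.45 and 8.58 and KO 7.81, 8.52, 8.49 and 8.32. KO day 2 replicate 3 again was the lowest of the day 2 samples and lay just below the highest control, while the other 7 stood above all control and day 5 samples. The mean was 1.01 higher at day 2, 2.02-fold, and 0.02 higher at day 5. Summed macrophage markers, on the linear scale, had a median over samples of 11689 in WT controls, 15043 at day 2 and 33832 at day 5. In KO the medians were 11502, 16303 and 31953. Which cells gave the *Dnase1l3* values was not tested.

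*Wnt2b*, a secreted Wnt ligand, was 0.76 higher at day 2, with 4.68 to 5.48 in the controls, 5.28 to 6.50 at day 2 and 4.99 to 5.42 at day 5. *Fam107a*, an actin-associated protein induced by stress hormones, was 0.89 higher at day 2, and its 8 day 2 samples spread widely, from 7.46 to 9.26, against 6.86 to 7.79 in the controls. *1810011O10Rik* was 0.73 higher, and its day 2 samples fell apart in a like way, 4 reading 7.31 to 7.61 and 4 reading 6.09 to 6.57. *Fam107a* and *1810011O10Rik* were high in the same samples: after removal of the group means their values correlated with r = 0.74 over the 24 samples. The second *1810011O10Rik* probe, which missed the day 2 limit, was 0.77 higher at day 2 and 0.17 higher at day 5.

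**Figure D3:**
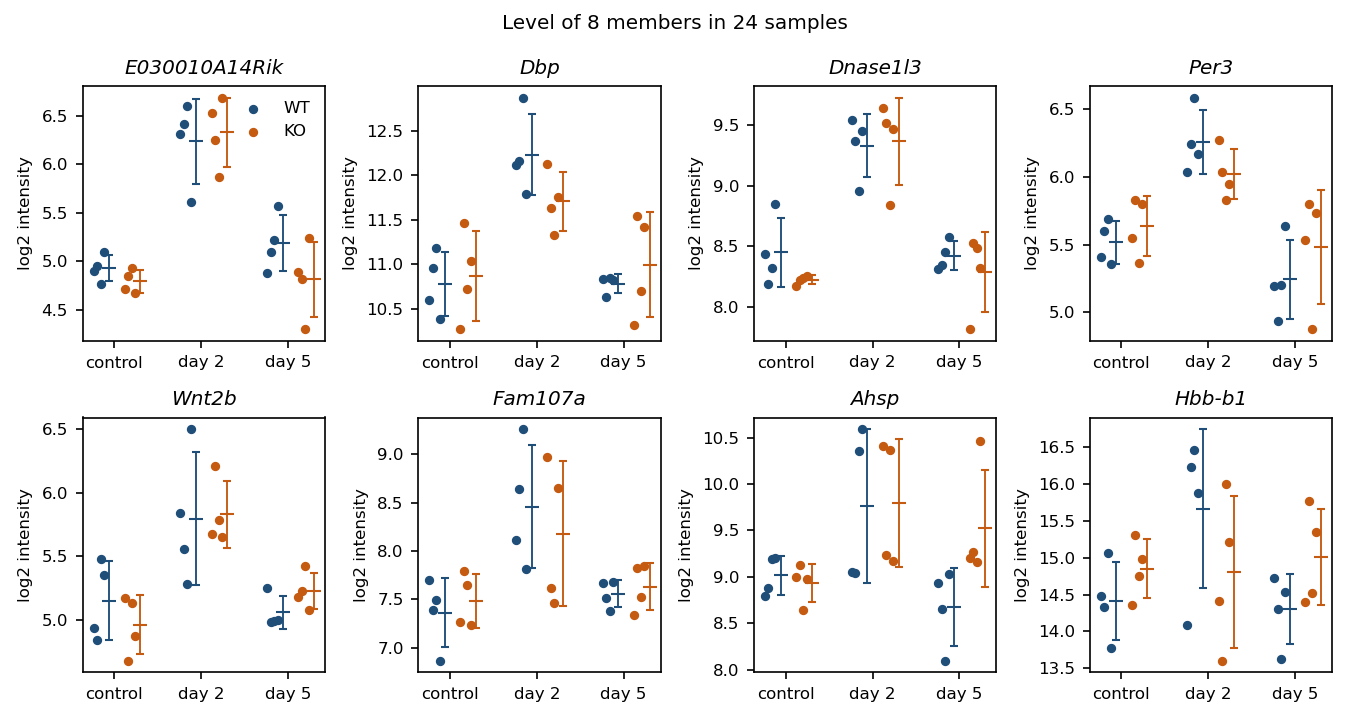
Log2 intensity (y axis) of 8 members in WT (blue) and KO (orange) DRG as control, day 2 and day 5, with each of the 4 samples per group as a point and the mean and SD beside them. The *E030010A14Rik* day 2 points lie above all others, the *Dbp*, *Dnase1l3* and *Per3* day 2 points do so in 7 of 8 samples, and *Ahsp* and *Hbb-b1* day 2 points run from the control level to far above it.

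Blood genes made up another part of the members. *Hbb-b1*, the adult beta globin (probe at chr7:110961112-110961171, mm9), was the brightest member of all. At day 2 it read 14.09, 16.24, 16.46 and 15.88 in WT and 14.41, 13.60, 16.01 and 15.22 in KO. Its controls read 14.48, 14.34, 15.06 and 13.78 in WT and 14.36, 15.31, 14.76 and 14.98 in KO, and its day 5 samples 13.63 to 15.77. At day 2, 4 samples were above all controls and day 5 samples, and 4 lay within the control range or below it. The mean difference at day 2 came to 1.25 in WT but to -0.05 in KO. The other 3 *Hbb-b1* probes were not members, with mean differences of 0.36, 0.43 and 0.50 at day 2.

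*Ahsp*, the chaperone that holds free alpha globin, read 9.05, 9.04, 10.36 and 10.59 in WT and 10.41, 9.23, 10.37 and 9.17 in KO at day 2. All controls lay between 8.65 and 9.20. At day 5, KO replicate 4 read 10.47 and the other 7 samples 8.10 to 9.26. Thus 4 day 2 samples stood more than 1 unit above the controls and the other 4 did not. They were partly other samples than for *Hbb-b1*: WT day 2 replicate 2 was high in *Hbb-b1* and at the control level in *Ahsp*, and KO day 2 replicate 1 the reverse.

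The list of red cell markers used here holds 5 genes on the array, 2 of them members. None of the other 3 (*Hba-a1*, *Alas2* and *Slc4a1*) was called at day 2 or day 5, and their median differences were 0.80 and 0.05. The summed level of the 5 on the linear scale ran from 23100 to 60808 in WT controls and from 28061 to 159768 at WT day 2, and from 35716 to 67626 in KO controls and from 21050 to 109023 at KO day 2. At day 5 it was 22434 to 46289 in WT and 35989 to 99025 in KO. The part of red cell RNA in the values of the other members was not tested. *Dbp* and *Hbb-b1* correlated with r = 0.40 over 24 samples after removal of group means.

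The probe for the immunoglobulin lambda constant 2 segment, from antibody-producing B cells, ranged from 5.51 to 7.21 in the controls and from 5.63 to 8.07 at day 2, and its groups overlapped throughout. After removal of group means it followed *Hbb-b1* (r = 0.63) and *Ahsp* (r = 0.61). *Stfa3*, a cysteine protease inhibitor of a gene cluster active in neutrophils, read 4.03 to 4.88 in the controls, 4.40 to 5.36 at day 2 and 3.12 to 4.84 at day 5. It was dim, well above background in 5 of 8 controls. *Stfa3* has close copies in the genome, which a probe may not separate.

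Several members shared a feature that the choice did not use, a purine repeat in the 60-base probe. It was noticed after the probe sequences had been read, and the unnamed transcripts given for it (TC1722728 and NAP123498-1) were picked out for it. The probes are shown 5′ to 3′ as printed on the array, whole for coding or non-coding RNAs of known type and as 30 bases around the repeat otherwise. Capitals mark GAGAGAGA or GAAGAAGA and its run.
TC1722728: ttccGAGAGAGAGAaagattccaccacatg
NAP123498-1: tgtgGAGAGAGAGAagggacagaaagggtc
Cdcp1: tcaaGAGAGAGAGAgtctgcaagtgttagc
4930539N22Rik: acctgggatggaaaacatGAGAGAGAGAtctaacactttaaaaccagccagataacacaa
Nat3: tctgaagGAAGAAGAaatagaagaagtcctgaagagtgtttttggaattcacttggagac
Mitf: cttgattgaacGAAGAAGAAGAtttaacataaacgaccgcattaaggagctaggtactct
The run GAGAGAGAG, read on the probe strand, was in 4 of 22 member probes (18.2 percent) and in 30 of all 41174 (0.0729 percent). GAAGAAGA was in 2 members and 214 of all probes (0.520 percent).

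The 26 probes with GAGAGAGAG that were not members had a median difference of 0.36 at day 2 and 0.00 at day 5 (-6.62e-05), against -0.02 and -0.04 over all probes. Of these 26, 11 were called higher at day 2 and 2 at day 5, where 9.33 and 9.6 percent of all probes were. At day 2, 21 of the 26 lay above 0, as did 47.6 percent of all probes. The difference was smaller for the other purine runs. The 90 non-member probes with the shorter GAGAGAGA, the 26 included, had a median of 0.09 at day 2 and 17 called higher, and the 212 with GAAGAAGA had a median of 0.09 and 26 called higher. On the opposite strand, the 10 non-member probes with CTCTCTCTC had a median of -0.09 and the 54 with TCTCTCTC -0.07. The 30 probes with ACACACACA had a median of -0.03. The per-sample median of the 26 probes was 0.22 to 0.65 above the control mean at WT day 2, 0.05 to 0.50 at KO day 2, and -0.36 to 0.19 at day 5. In the controls it was -0.13 to 0.24, so that the lowest day 2 samples lay within the control range. Which RNAs bound these probes was not tested.

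**Figure D4:**
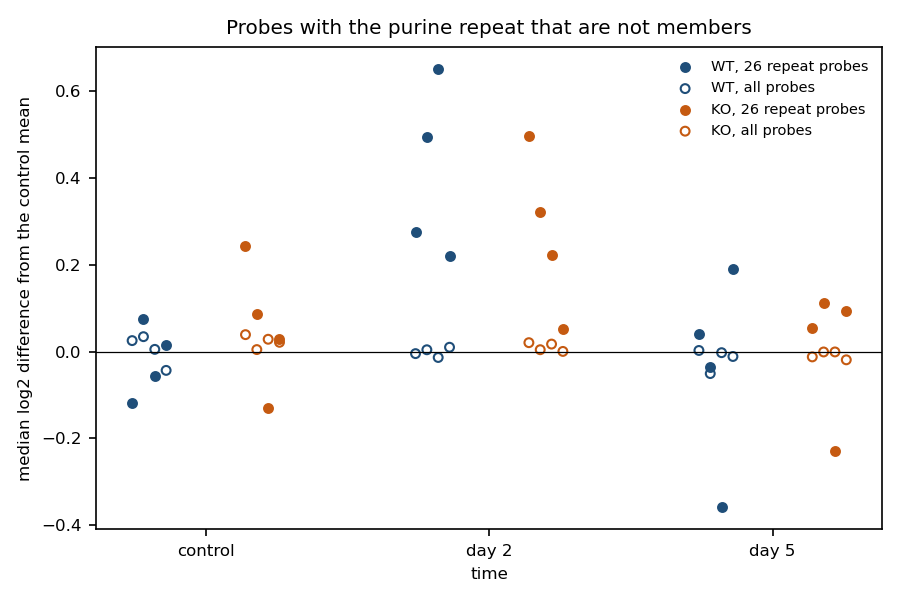
Median log2 difference from the mean of the 8 controls (y axis), per sample, over the 26 probes that hold GAGAGAGAG and are not members (filled) and over all probes (open), in WT (blue) and KO (orange) at each time. The 26 probes are above 0 in all 8 day 2 samples, at 0.05 to 0.65, and on either side of 0 in the controls and at day 5.

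With group means removed, the 15 pairs among the 6 members shown above correlated over the 24 samples with r from 0.43 (*Mitf* and *Cdcp1*) to 0.81 (*4930539N22Rik* and *Cdcp1*), with a median of 0.68. The other 216 pairs of members ran from -0.63 to 0.81 with a median of 0.15, and the highest of these was *Mitf* with a transcript without a symbol whose probe holds neither repeat. Of all 231 pairs of members, 158 had r above 0 and 10 above 0.7, and the median was 0.18. These samples share arrays and slides, and genes of 1 sample share its RNA.

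For *Mitf* and *Cdcp1* the array holds other probes. *Mitf*, a transcription factor of pigment cells, mast cells and osteoclasts, was 0.68 higher at day 2 by the member probe, from 5.20 to 6.63 in the controls to 5.86 to 7.24. Its other probe, well above background in all samples, differed by 0.02 at day 2 and 0.01 at day 5. *Cdcp1*, a membrane protein with CUB domains, was 0.77 higher at day 2 and 0.05 at day 5 by the member probe. The array files name an Ensembl transcript for that probe, and whether it reports the coding mRNA was not tested. The other 2 *Cdcp1* probes were 0.95 and 1.88 higher at day 2, and 1.50 and 2.16 higher at day 5. They did not return to the control level, but were well above background in only 2 and 4 samples, too dim for a comparison. *Nat3*, an arylamine N-acetyltransferase, was well above background in 3 of 8 controls, and 1 value of 0.66 at WT day 5 against 4.18 to 5.44 in the others gave it a wide spread.

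Among the members without a repeat, *Cux1*, a homeobox factor, was 0.57 higher at day 2 by the member probe, while its other 3 probes differed by 0.15 to 0.20 at day 2. *Bms1*, a GTPase of ribosome assembly, was 0.53 higher at day 2, from 4.47 to 4.92 in the controls to 4.89 to 5.44, and its other, brighter probe 0.25. None of the 40 genes on a ribosome biogenesis list was a member, and their median day 2 difference was 0.11. *Olfr920*, an olfactory receptor gene, read 4.64 to 5.66 in the controls and 5.62 to 6.10 at day 2. In *Cux1*, *Bms1* and *Olfr920* 7 of 8 day 2 samples were above all controls and all day 5 samples. The choice had used these values, so this is a description. The member probes of *Cux1* and *Bms1* were dim, each well above background in 5 of 8 controls and 6 of 8 day 5 samples.

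The day 2 differences were not equal on the 3 slides. On slide 1, with 1 day 2 sample (KO replicate 3), the median member was 0.46 above the controls of that slide, 0.80 on slide 2 and 0.55 on slide 3. *Fam107a* was -0.08 on slide 1 against 1.10 and 1.08 on the others, and *Ahsp* -0.09 on slide 3 against 1.56 and 1.22. *Dbp* was above the controls on every slide, at 0.80, 1.11 and 1.00, as were *E030010A14Rik* (1.02, 1.43 and 1.57), *Dnase1l3* (0.55, 1.17 and 1.00) and *Per3* (0.39, 0.56 and 0.45). By dye, the median was 0.75 in Cy3 and 0.68 in Cy5 samples. *Hbb-b1* split by dye as well, at -0.04 in Cy3 and 1.25 in Cy5.

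Whether *Nfil3* alters these genes is a comparison that the choice did not use, since it averaged the genotypes. None of the 22 members differed between KO and WT in control, day 2 or day 5 DRG (limma, Benjamini-Hochberg over all probes), where 0, 0.0121 and 0.0121 percent of all probes did. Unadjusted p-values were under 0.05 for 0, 0 and 1 members, and for 1.76, 3.83 and 2.47 percent of all probes. At day 2, 17 of 22 members had a lower mean in KO, as did 48.1 percent of all probes, with a median of -0.18 against 0.01 over all probes. Members share these samples and many correlate across them, so they are not separate observations of the genotypes. The only day 2 sample on slide 1 was a KO sample, so genotype and slide cannot be fully told apart at day 2. The SE of single members ran from 0.16 to 0.65, and no single difference passed the test.

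The smallest p-values for KO minus WT at day 2 belonged to *Dbp* (-0.52 ± 0.29 SE, unadjusted p = 0.0841 in limma), *Hbb-b1* (-0.86 ± 0.51), *Per3* (-0.24 ± 0.19), *Cux1* (-0.21 ± 0.18) and *Mitf* (-0.43 ± 0.40), each with an adjusted p of 1.00. *Dbp* rose by 1.45 from control to day 2 in WT against 0.84 in KO, and at day 2 all 4 WT samples were above 3 of the 4 KO samples. The time*genotype interaction gave no call among the members either, and none had an unadjusted p under 0.05 (limma), where 0 and 2.23 percent of all probes did. Its smallest p-values were those of *Hbb-b1* (0.0896), *Dbp* (0.179), *Ahsp* (0.193), *Per3* (0.196) and *Cux1* (0.198). *Ahsp* had the 1 unadjusted p under 0.05, for KO minus WT at day 5 (0.84 ± 0.38, unadjusted p = 0.0366 and adjusted p of 1.00 in limma). KO day 5 replicate 4 was more than 1 unit above the other KO samples of that day.

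**Figure D5:**
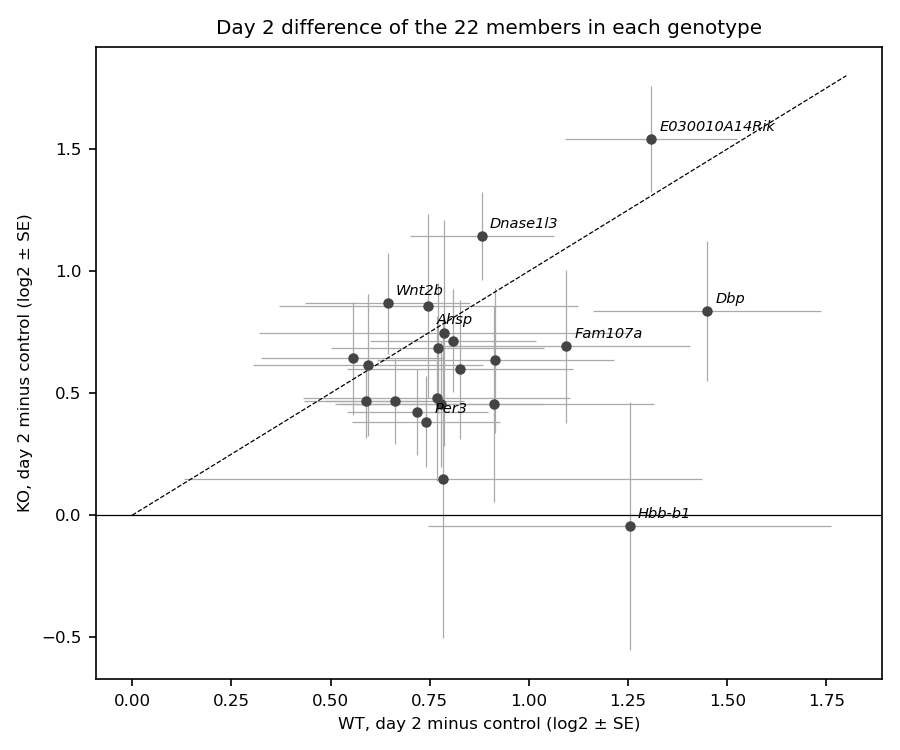
Day 2 minus control (log2) in WT (x axis) and KO (y axis) for the 22 members, with SE bars from the limma fit and equal differences on the dashed line. Most members lie below the line, *Hbb-b1* is at 1.25 in WT and -0.05 in KO, and *E030010A14Rik* and *Dnase1l3* are high in both genotypes.

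The rise could be tested where the same rule chose probes within a genotype and the other genotype was tested. WT and KO samples share arrays and slides, but not controls. In WT alone 74 probes met the rule, 17 of them members, and in KO alone 34, 5 of them members. The overlap was 4 probes, 5.41 percent of the WT set and 11.8 percent of the KO set: *Dbp*, *Dnase1l3*, *Nat3* and TC1722728. This overlap is on the scale of the choice. On the normalized scale the dim *Nat3* probe differed at day 2 by 0.78 ± 0.65 (SE) in WT and 0.15 ± 0.65 in KO, and neither was called.

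Of the 34 probes chosen in KO, 10 were called higher at day 2 in WT (29.4 percent), where 5.04 percent of all probes and 8.16 percent of probes well above background in KO day 2 samples were. None was called higher at day 5 (5.93 percent of all probes were), and 4 were called lower at day 5 than at day 2, against 0.146 percent of all probes: *Dbp*, *E030010A14Rik*, *Dnase1l3* and *Dclk1*, a microtubule-associated kinase that is no member. *Dbp* was 1.45 ± 0.29 (SE) higher at day 2 in WT (adjusted p = 0.00225), *E030010A14Rik* 1.31 ± 0.22 (0.000427) and *Dnase1l3* 0.88 ± 0.18 (0.00305). These 3 met the day 2 rise and the fall to day 5 in WT samples, which the choice in KO had not used. As members, however, they had been chosen with the WT samples included.

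Of the 74 probes chosen in WT, 6 were called higher at day 2 in KO (8.11 percent), a share near the background of 5.09 percent of all probes and 8.01 percent of probes well above background in WT day 2 samples. They were *Dnase1l3* (1.14 ± 0.18 SE, adjusted p = 0.000262), *Wnt2b* (0.87 ± 0.21), *Col16a1*, *Mcm10*, TC1722728 and the non-member *1810011O10Rik* probe. *Dbp* was not among them (0.84 ± 0.29 SE, adjusted p = 0.0689 in limma). None was called higher at day 5 in KO (5.56 percent of all probes were), and 1, *Dnase1l3*, was called lower at day 5 than at day 2 (-1.08, adjusted p = 0.00412), where 0.192 percent of all probes were. The median over the 74 was 0.46 at day 2 in KO and 63 of 74 were above 0, as were 47.7 percent of all probes. Without KO day 2 replicate 1 or KO control replicate 3, 3 of the 74 were called higher at day 2, and without KO day 2 replicate 3, 10. *Dnase1l3* was thus the member that met the day 2 rise and the return in either direction of the exchange. As a member it had been chosen with the samples of both genotypes, so this is a description and no separate support.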

How the data were processed

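Gene expression was measured on Agilent 4x44K whole mouse genome arrays, 12 arrays on 3 slides, with a different sample in each channel. Scans were read with Agilent Feature Extraction. The authors deposited, per spot and channel, raw foreground and background intensity, a processed intensity after background subtraction and dye correction by that software, and 0 or 1 scores (flags) for outliers, saturation and signal well above background. RNA came from frozen DRG, with 4 replicates per condition.

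From these, mean foreground and median background intensities were corrected by the Edwards method and quantile normalized across channels in limma 3.58.1 (R 4.3.3, statmod 1.5.0; tables and figures in Python 3.11.15), control and outlier spots were left out, spots of a probe were averaged and values were put on the log2 scale. This left 417 of the probe values missing. The choice of members used the processed signals instead, floored at 1. lmFit and eBayes were run on all 24 samples with a mean for each of the 6 groups, with a Benjamini-Hochberg threshold of 0.05 over 41174 probes. The numbers of arrays limit the precision. The code was tested on simulated data.

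The members and the 37 gene lists were chosen with earlier results of these data known. Genes were named by a fixed rule: the 20 members with the highest day 2 difference on the normalized scale, members of a list, genes with 2 or more member probes, the 5 smallest p-values for KO minus WT at day 2 and for the interaction, the 3 probes on either side of each limit, and *Nfil3*; the brightest member probe stood for a gene. A withheld item is not reported here. Transcripts without a symbol were named only where stated. Alternatives changed the background correction, scaling, filter, thresholds and the treatment of dye, slide, array and replicate number, or left out a sample. Positions of probes were read from the array files (mm9), and promoters and current names are from RefSeq (GRCm38.p6).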

Additional observations from a re-analysis of the deposited data

Results flagged for a closer look

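Within groups of 4, a single sample stood far from the other 3 in 7 of the 132 member and group combinations; chance gives about 1 in 20. For *Dbp*, WT day 5 replicate 2 read 10.63 against 10.82 to 10.84. For *Nat3*, KO control replicate 3 read 3.80 against 4.67 to 4.84, and KO day 2 replicate 1 read 5.40 against 4.40 to 4.46. For *Wnt2b*, WT day 5 replicate 1 read 5.25 against 4.99 to 5.00. KO control replicate 3 was also low in NAP123498-1, at 4.81 against 5.38 to 5.47, and WT day 5 replicate 3 was low in *4930539N22Rik*, at 4.58 against 5.39 to 5.56. For *Ahsp*, KO day 5 replicate 4 read 10.47 against 9.15 to 9.26. The causes were not tested.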

How the results depend on the processing

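The set of members depended on the scale. The rule gave 22 probes on the processed signals, 10 on the Edwards and quantile normalized values (5 of them members: *E030010A14Rik*, *Dbp*, *Dnase1l3*, *Fam107a* and *Ahsp*) and 4 with normexp or without background correction (*Dbp* and *Dnase1l3* the 2 members each time). It gave 5 with a day 2 limit of 1, 1 with a day 5 limit of 0 (*Per3*), 74 in WT samples, 34 in KO samples and 9, all members, with slide as a block. Leaving out single samples gave 12 to 34. The day 2 difference of a member kept its sign in all 704 values over these alternatives. The choice had required a rise in the same samples, so a change of sign was unlikely from the start. The median day 2 difference fell to 0.31 with normexp and 0.37 without background correction, from 0.70. No member was called for KO minus WT or for the interaction under any alternative, samples left out included. Of the probes chosen in WT, 6 were called higher at day 2 in KO, 10 without background correction, 11 on processed signals and 3 to 10 with a sample left out. Of those chosen in KO, 10 were called in WT, 7 to 10 with a sample left out and 9 to 11 otherwise. With the replicate number as a block these counts were 5 and 10, and no member was called between genotypes. Numbers 1 and 2 are Cy3 and 3 and 4 Cy5, so a number also marks the dye: samples of the same number correlated with a median r of 0.07 over 60 pairs after removal of group means, those of the same dye 0.06 over 120. Dim probes limit the rest, since 13 of 22 members had a mean log2 intensity under 6.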

Other observations

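Among the 74 probes that met the rule in WT samples alone were groups of red cell, granule, B cell, clock and myelin genes, of which an *Hbb-b1* probe, an immunoglobulin probe, *Dbp* and *Per3* were members. They were grouped after their values were seen and are given as a description, with no test. The choice required a rise in WT samples, so larger day 2 differences in WT than in KO were likely from the start. The 10 probes for haemoglobin and red cell genes (*Hba-a1*, *Hba-a2*, *Hbb-b1*, *Slc4a1*, *Alas2*, *Epb4.1* and *Hemgn*) were 0.77 to 1.48 higher at WT day 2, and -0.44 to 0.68 different at KO day 2, where 3 lay above 0. The 6 probes for granule proteins of myeloid cells (*Mpo*, *Ctsg*, *Prg2*, *Ear1*, *Ear10* and *Ear11*) were 0.59 to 1.35 higher at WT day 2 and 0.48 to 1.20 at KO day 2, and in KO their median was still 0.90 higher at day 5. The 5 probes for immunoglobulin segments and the B cell gene *Ms4a1* were 0.59 to 1.12 higher at WT day 2 and -0.36 to 0.75 different at KO day 2, where 4 lay above 0. The 5 probes for clock genes (*Dbp*, *Per2*, *Per3*, *Gm129* and *Nr1d1*) were 0.41 to 1.45 higher at WT day 2 and 0.01 to 0.84 at KO day 2, with a KO median of 0.38 at day 2 and -0.15 at day 5. The 5 probes for myelin genes (*Mal*, *Pmp2*, *Fa2h* and *Egr2*) were 0.80 to 0.90 higher at WT day 2 and 0.28 to 0.65 at KO day 2. At day 5 in KO the median difference was 0.35 for the myelin probes, 0.17 for the red cell probes and 0.14 for the B cell probes.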
